A study of Mus musculus with 6 samples.

Results

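Histone acyltransferases are the enzymes that place acyl groups on histone lysines, and the RNA of 10 mouse genes of this kind was compared between control and metformin-treated cultures. The genes were Ep300, Crebbp, Kat2a, Kat2b, Kat5, Kat6a, Kat6b, Kat7, Kat8 and Hat1, chosen by name as candidate writers of histone β-hydroxybutyrylation and acetylation, and all 10 were found among the 55401 Ensembl genes of the deposited table. None of the 10 passed the test for a difference between the groups, and their levels kept 1 order in all 6 libraries. The study asks how metformin, a biguanide drug used against diabetes, acts on female germline stem cells (FGSCs) through histone β-hydroxybutyrylation. RNA-seq was made from 3 control libraries, whose cells were given no treatment, and from 3 libraries of cells that were kept with metformin at 1 μM over 24 h. Both groups came from a C57BL/6 FGSC line above passage 20 according to the labels, grown on STO fibroblast feeders that had been mitotically inactivated, with serum, leukemia inhibitory factor, epidermal growth factor, basic fibroblast growth factor and glial cell line-derived neurotrophic factor. All libraries thus stem from 1 line, and nothing in the labels says that they came from separate cultures, so the p-values below measure the spread between these libraries, which may be technical.

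The values are FPKM, the fragments on a gene per kilobase of its length and scaled to the mapped fragments of its library, which the authors deposited with 1 column per library. Depth was estimated at 13400000 to 14000000 fragments per library. Of 6 germ cell markers, Dazl, Dppa3 and Pou5f1 had a listed value of 0 in each library, and Ddx4 and Prdm1 did not exceed 0.05 FPKM. Ifitm3, or Fragilis, was the highest of the 6, at 0.32 to 1.32 FPKM, and made up most of their sum of 0.48 to 1.38 FPKM in the control group and 0.33 to 0.93 FPKM with metformin. The markers that define the labelled cell type were thus at 0 or low. Of 12 fibroblast markers, 0 reached a mean of 1 FPKM, and their summed level was 0.93 to 1.11 FPKM in the control group and 0.85 to 0.87 FPKM with metformin. By contrast, 9 of 12 blood cell markers reached that mean, with sums of 777 to 806 FPKM and 758 to 783 FPKM. Most of these sums came from Cpa3, Coro1a and Kit, with means of 352, 139 and 118 FPKM. Cd34, Itgam and Ms4a2 had means under 1 FPKM. Of all genes tested, 3 passed the test, Trib3, Chac1 and Ddit3, which respond to cellular stress, and each was higher with metformin (lowest adjusted p = 0.000127, limma with Benjamini-Hochberg adjustment over 10661 genes). Trib3 was called under every alternative tried, whereas with the spread of each gene alone Chac1 had an adjusted p of 0.163 and Ddit3 of 0.174 from limma's fit, and Ddit3 had 0.0833 with a replicate block.

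Histone acyltransferases transfer an acyl group from coenzyme A to the side chain of a lysine, which removes its positive charge and creates a docking site for reader proteins such as those with bromodomains or YEATS domains. Ep300 and Crebbp encode the paired coactivators p300 and CBP, which accept several acyl groups besides acetyl, and p300 is known to catalyse β-hydroxybutyrylation. Kat2a, Kat2b and Hat1 belong to the GNAT family, and Kat5, Kat6a, Kat6b, Kat7 and Kat8 to the MYST family, whose members work inside large complexes that choose their targets. The amount of RNA says nothing of the activity of these enzymes or of the supply of acyl-coenzyme A.

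Because the study concerns a histone mark at promoters, the promoters of the 10 genes were searched for motifs, in RefSeq windows on GRCm38.p6 from 250 bases before to 50 bases after each annotated start. All 10 symbols matched, with 13 windows, since some genes have more than 1 start. The ETS motif, searched as CCGGAAGT on both strands, was found in a window of Hat1, Kat8, Kat7 and Kat5, that is in 4 of 13 windows, while 3.89% of all 32851 windows held it. These sites are shown because ETS was the motif found in the largest number of the 10 genes, with the motif or its reverse complement in capitals and each sequence read 5′ to 3′ on the strand of the gene.
Hat1 (chr2:71389221-71389250, plus strand): tccttgcggtcACTTCCGGcccgggagcgc
Kat8 (chr7:127912506-127912535, plus strand): tctggccggtcACTTCCGGcacagcaatgg
Kat7 (chr11:95310228-95310257, minus strand): gcaagcctcagCCGGAAGTtaaggaatagg
Kat5 (chr19:5610063-5610092, minus strand): cgcactcagctCCGGAAGTgacgtctccca
In Kat7 and Kat8 the motif begins at the annotated start itself. In Kat5 it begins 13 bases after the start, and the window held it once more, 38 bases after the start. The E-box CACGTG was found in 2 of 13 windows, those of Hat1 and Kat5, against 7.15% of all windows. Neither the cyclic AMP response element TGACGTCA nor TGATGNAA, the element of ATF4 and C/EBP factors, was found in the 13 windows, against 1.79% and 3.97% of all windows. The 13 windows held 47.0% to 82.0% G or C, against a median of 52.7% over all windows. The shares were not matched for this content, so they show no enrichment of a motif. These matches describe letters in the windows and show no binding.

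All 10 genes were above 0 in every library, and all 10 passed the filter of a mean of at least 1 FPKM, so none was lost from the test. Kat6b lay closest to that filter, with a mean of 1.01 FPKM. Over the 6 libraries, mean FPKM was 58.9 for Hat1, 44.1 for Kat2a, 30.6 for Kat7, 15.6 for Kat6a, 11.8 for Ep300, 10.8 for Kat8, 6.53 for Kat5, 3.85 for Kat2b, 1.87 for Crebbp and 1.01 for Kat6b. The highest and the lowest of these levels were 58.3-fold apart. For each of the 9 neighbouring pairs in this order, the first gene was above the second in 6 of 6 libraries. The closest neighbours were Ep300 and Kat8, whose ratio within a library was 1.03 to 1.15. The median gene tested had 9.35 FPKM, and 6 of the 10 acyltransferases had a mean of at least 10 FPKM. FPKM depends on the gene length that the authors used, which is not given in the sources used here, so small gaps between genes could change with the gene model.

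**Figure D1:**
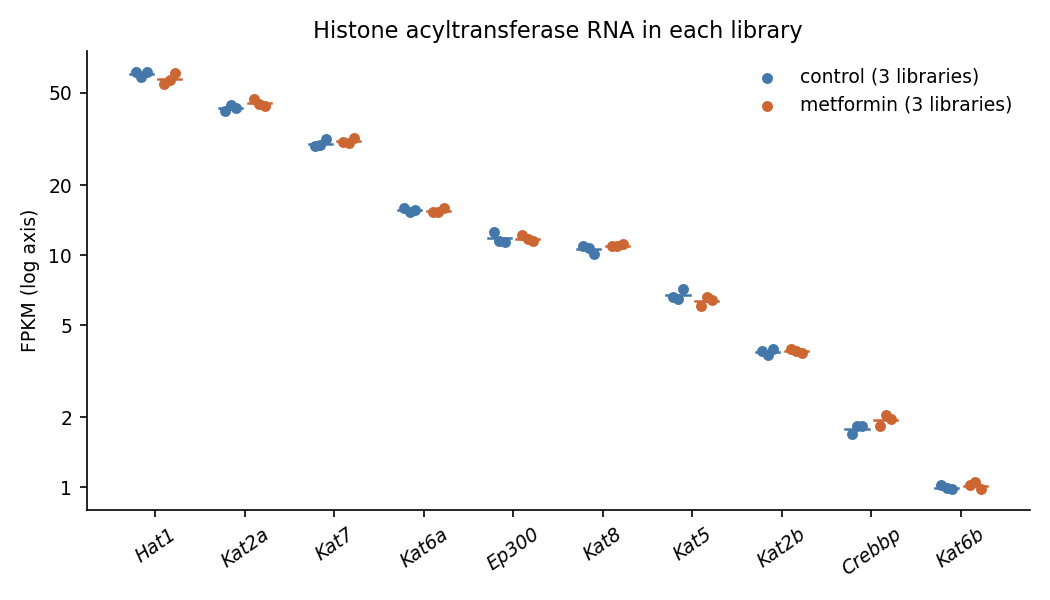
FPKM of the 10 histone acyltransferase genes on a log axis, with 1 point per library, 3 control and 3 metformin libraries per gene, and a bar at each group mean. Genes run from Hat1 at a mean of 58.9 FPKM to Kat6b at 1.01 FPKM. The groups are drawn side by side, and their values overlap for every gene but Kat8. The axis spans the levels of all 10 genes, so small differences between the groups are hard to see on it.

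Ep300 (chr15:81585351-81652077 on GRCm38, plus strand) encodes p300. Its level was 12.5, 11.5 and 11.4 FPKM in control replicates 1 to 3, and 12.2, 11.7 and 11.5 FPKM with metformin. The groups overlapped, and the highest value was a control. The log2 difference was -0.0011 (standard error 0.046, 95% interval -0.11 to 0.11, adjusted p = 0.998 from limma), and its sign turned when single libraries were left out, with values between -0.023 and 0.0403. On the scale of log2(FPKM + 1), this interval corresponds to a fold of 0.927 to 1.08.

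Crebbp (chr16:4081328-4213997, minus strand) encodes CBP. It had 1.69, 1.84 and 1.84 FPKM in the control group and 1.83, 2.05 and 1.96 FPKM with metformin. Of the metformin libraries, 2 were above all controls and 1 was just below the 2 higher controls. The log2 difference of 0.079 was the largest in size of the 10 genes (standard error 0.07, 95% interval -0.085 to 0.24, adjusted p = 0.717 from limma). The scale understates changes of genes this low, and with a pseudocount of 0.1 the difference was 0.11, with an interval equal to a fold of 0.915 to 1.28. About 170 to 220 fragments per library lay on Crebbp by estimate, against 1780 to 1910 on Ep300.

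Kat2a (chr11:100704746-100712465, minus strand), also known as GCN5, is the acetyltransferase of the SAGA and ATAC coactivator complexes. It had 41.6, 44.3 and 43.2 FPKM in the control group and 47.2, 44.5 and 43.9 FPKM with metformin. A pair of metformin libraries was above all controls, and the other was below control replicate 2. With a log2 difference of 0.069 (standard error 0.037, 95% interval -0.018 to 0.16), Kat2a had the lowest p of the 10 genes, with an adjusted p of 0.541 in limma. Kat2b (chr17:53566861-53672720, plus strand), or PCAF, is its paralog in the same complexes. It had 3.86, 3.71 and 3.95 FPKM in the control group and 3.95, 3.87 and 3.77 FPKM with metformin, so that the ranges nearly coincided. Its log2 difference was 0.0071 (standard error 0.049, 95% interval -0.11 to 0.12, adjusted p = 0.975 from limma).

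Hat1 (chr2:71388958-71441622, plus strand) acetylates newly made histone H4 before it is deposited on DNA. It had 61.3, 58.3 and 61.7 FPKM in the control group and 54.3, 56.6 and 61.1 FPKM with metformin. Metformin replicates 1 and 2 were below all controls, whereas metformin replicate 3 lay inside the control range. The log2 difference was -0.076 (standard error 0.045, 95% interval -0.18 to 0.03, adjusted p = 0.58 from limma). Without metformin replicate 3 it was -0.12 with an unadjusted p of 0.015 and an adjusted p of 0.479 in limma, and without metformin replicate 1 it was -0.038 with an unadjusted p of 0.396 in limma, so that single libraries set its size and whether the unadjusted threshold was met. Among 10 markers of cycling cells, the replication clamp gene Pcna had 167, 172 and 172 FPKM in the control group and 156, 158 and 169 FPKM with metformin. Mcm5, a subunit of the replicative helicase, had 96.6, 95.1 and 95.3 FPKM in the control group and 96.2, 99.5 and 102 FPKM with metformin. Both were named after their values were seen. Mki67 had the lowest p of the 10, with 63.9, 62.3 and 62.8 FPKM in the control group and 60.3, 57.1 and 58.2 FPKM with metformin. Its adjusted p was 0.346 in limma, and 0 of the 10 markers had an adjusted p under 0.05. The summed level of those 10 markers was 788 to 801 FPKM in the control group and 759 to 792 FPKM with metformin, with 4 estimates above 0 and 6 below. At an unadjusted p under 0.05, 4 of the 10 were lower and 0 higher, against 4.81% and 6.03% of all genes, and the count of 4 became 1 with moderated spreads without the trend and 2 with the spread of each gene alone or without metformin replicate 2. The part of the cycling markers in the Hat1 values was not tested. In bulk RNA, fewer cells of a type and less RNA per cell cannot be told apart.

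The MYST genes covered a wide range of levels. Kat7 (chr11:95274259-95310246, minus strand), or HBO1, which takes part in replication origin licensing and histone H3 acetylation, had 29.4, 29.7 and 31.5 FPKM in the control group and 30.8, 30.3 and 31.9 FPKM with metformin. Metformin values were inside the control range in 2 libraries and above it in 1. Kat6a (chr8:22859535-22943259, plus strand), or MOZ, which blood stem cells are known to need, had 15.99, 15.28 and 15.59 FPKM in the control group and 15.29, 15.27 and 15.97 FPKM with metformin, with the lowest replicate coefficient of variation of the 10 genes, at 2.43%. Kat6b (chr14:21481434-21672478, plus strand), its paralog MORF, had 1.02, 0.99 and 0.98 FPKM in the control group and 1.02, 1.05 and 0.98 FPKM with metformin. The groups overlapped for all 3 genes. Their log2 differences were 0.036 for Kat7, -0.0096 for Kat6a and 0.014 for Kat6b, with adjusted p-values of 0.745, 0.943 and 0.97 in limma. Kat6b had about 130 to 140 fragments per library by estimate, and its interval at a pseudocount of 0.1 was wide, a fold of 0.778 to 1.33. In the main fit its standard error was 0.082, against 0.030 without limma's trend and 0.017 with its own spread alone. The trend thus widened its interval beyond the spread of its own values.

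Kat8 (chr7:127912516-127925837, plus strand), or MOF, acetylates histone H4 in the MSL and NSL complexes. It had 10.9, 10.8 and 10.1 FPKM in the control group and 10.9, 10.9 and 11.1 FPKM with metformin. It was the only gene of the 10 whose groups did not overlap, by a gap between 10.89 and 10.92 FPKM. Groups did not overlap for 17.0% of all genes tested, 8.89% with metformin higher and 8.1% with metformin lower, so 1 of 10 genes is near that background. The exact permutation test of Kat8 gave p = 0.1, the smallest that 3 libraries against 3 allow, and limma gave a log2 difference of 0.051 (standard error 0.038, 95% interval -0.039 to 0.14, adjusted p = 0.669). Kat5 (chr19:5603014-5610237, minus strand), or TIP60, acetylates histones H4 and H2A and takes part in DNA repair. It had 6.63, 6.44 and 7.13 FPKM in the control group and 6.05, 6.57 and 6.38 FPKM with metformin. A pair of metformin libraries was below all controls, and the log2 difference was -0.076 (standard error 0.051, 95% interval -0.2 to 0.043, adjusted p = 0.618 from limma). Over 4006 bases Kat5 overlaps Rnaseh2c, a gene on the opposite strand with 9.04 to 12.4 FPKM, and whether the counting used the strand is not given in the sources used here, so that Kat5 values are uncertain. The other genes that overlap the 10 had means of at most 0.252 FPKM.

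**Figure D2:**
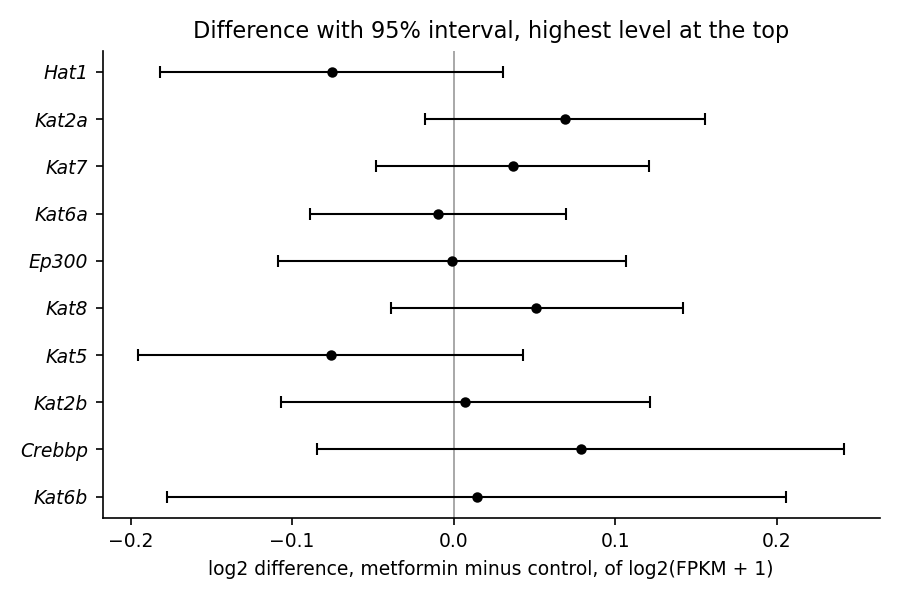
Log2 difference of metformin minus control on the scale of log2(FPKM + 1) for the 10 genes, ordered by level. Points are the limma estimates and bars their 95% intervals, and every bar crosses 0.

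Across the 10 genes, 6 estimates were above 0 and 4 below, while 52.3% of all genes tested were above 0. The number above 0 was 5 with quantile normalization and 5 to 8 when a library was left out, with 8 without control replicate 1 or metformin replicate 2. All 10 intervals held 0, and their bounds ran from -0.2 for Kat5 to 0.24 for Crebbp. At an adjusted p under 0.05, 0 of the 10 genes were called by limma, against 0.0281% of all 10661 genes tested, and 0 of the 10 had an unadjusted p under 0.05, against 10.8% of all genes, 6.03% higher and 4.81% lower. The median log2 difference was 0.011 for the 10 genes and 0.0041 for all genes tested. Of all genes tested, 29.5% had a larger difference in size than Crebbp. The replicate coefficient of variation of the 10 genes was 2.43% to 5.32%, with a median of 3.42%, and the median of all genes tested was 4.76%. Counting alone would give 2.06% to 8.66%, from fragments estimated with the exon lengths of GENCODE M1. In the sum of all 10 genes, the control group had 183 to 187 FPKM and the metformin group 183 to 188 FPKM. Summed FPKM was 13.2 to 14.2 and 13.4 to 13.99 for the p300 and CBP pair, 106 to 109 and 105 to 109 for the 3 GNAT genes, and 63.1 to 65.3 and 64.0 to 66.4 for the 5 MYST genes.

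Close paralogs can stand in for each other, so the balance within 3 pairs was compared, as a ratio of FPKM that does not depend on the scaling of a library. The Ep300 to Crebbp ratio was 7.42, 6.22 and 6.20 in the control group and 6.64, 5.72 and 5.84 with metformin. Kat2a was 10.78, 11.95 and 10.93 times Kat2b in the control group and 11.95, 11.51 and 11.64 times with metformin. Kat6a was 15.7, 15.4 and 15.9 times Kat6b in the control group and 14.99, 14.54 and 16.30 times with metformin. Thus 1 paralog of each pair carried most of the RNA in all 6 libraries, and the groups overlapped for each of the 3 ratios. Metformin minus control, the log2 ratios differed by -0.12 for Ep300 to Crebbp, 0.061 for Kat2a to Kat2b and -0.039 for Kat6a to Kat6b. Single libraries moved these values. Ep300 to Crebbp went to -0.036 without control replicate 1 and -0.19 without metformin replicate 1. Kat2a to Kat2b went to 0.033 without control replicate 1 and 0.11 without control replicate 2. Kat6a to Kat6b went to -0.0039 without metformin replicate 2 and -0.086 without metformin replicate 3. Two-sided exact permutation tests gave p = 0.4, p = 0.4 and p = 0.5, and each was 0.5 after Benjamini-Hochberg adjustment over the 3 ratios.

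**Figure D3:**
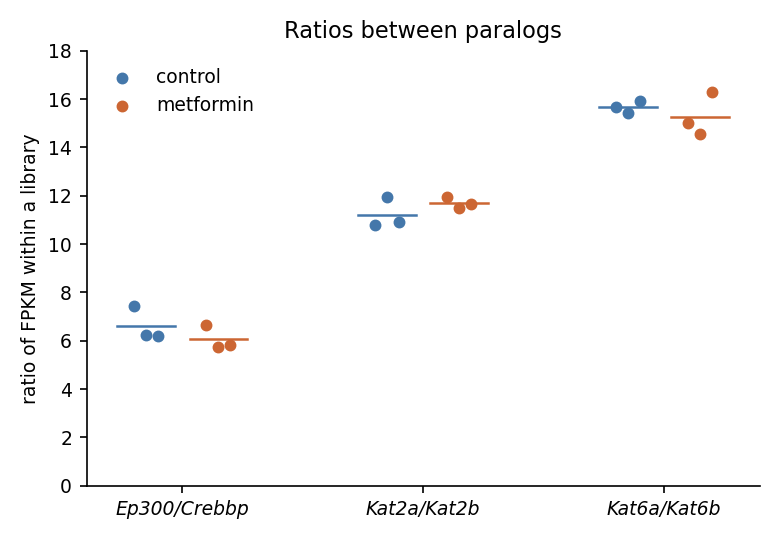
Ratio of FPKM between paralogs within each library on an axis from 0, with 1 point per library and a bar at the geometric mean of each group of 3. Kat6a to Kat6b is the most uneven pair, at 14.5 to 16.3, and the groups overlap in all 3 pairs.

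Acyltransferases act with partner subunits, so 9 lists of partners, cofactors, readers and related enzymes were examined, with 103 genes tested of 108 listed. Of these, 0 had an adjusted p under 0.05 in limma, and the lowest was 0.363. At an unadjusted p under 0.05, 6 were higher and 8 lower with metformin, or 13.6% of the 103 against 10.8% of all genes. This count of 14 became 6 without control replicate 1 or metformin replicate 3, and was 7 to 11 with any other single library left out. Groups did not overlap for 20 of the 103, or 19.4%, against 17.0% of all genes. The median log2 difference of the 103 genes was 0.0011.

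Of the SAGA and ATAC partners of Kat2a and Kat2b, 18 were tested, 12 with estimates above 0 and 6 below, and their median log2 difference was 0.038. The number above 0 was 10 with quantile normalization, and between 10 without control replicate 3 and 16 without control replicate 2 when a library was left out, while the median was 0.023 without control replicate 1. Tada2a, the ADA2 subunit of ATAC, had 15.6 ± 0.576 FPKM in the control group and 16.6 ± 0.491 FPKM with metformin (SD, n = 3 each), and Yeats2, an ATAC reader of acylated lysine, had 7.02 ± 0.1 and 6.58 ± 0.3 FPKM. Of the 17 tested TIP60 complex partners of Kat5, 10 had estimates above 0 and 7 below. The scaffold gene Epc1 had 6.42 ± 0.314 and 7.10 ± 0.318 FPKM, and Morf4l2, a chromodomain protein relative, had 113 ± 2.61 and 108 ± 2.03 FPKM. The adjusted p-values of these 4 genes in limma ranged from 0.439 to 0.533.

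The BRPF and JADE partners, which direct Kat6a, Kat6b and Kat7 to their targets, had 8 tested genes, and 0 had an unadjusted p under 0.05. In this list Meaf6, a small subunit shared with TIP60, had 4.28 ± 0.261 FPKM in the control group and 4.66 ± 0.255 FPKM with metformin (SD, n = 3 each), and the scaffold gene Jade1 had 13.4 ± 0.0404 and 13.1 ± 0.297 FPKM. Among 11 MSL and NSL partners of Kat8, the NSL subunit gene Kansl3 had 17.5 ± 0.199 and 18.5 ± 0.33 FPKM, while Kansl1, the NSL scaffold, had 13.1 ± 0.475 and 12.3 ± 0.365 FPKM. The median log2 difference of this list was -0.001. Adjusted p-values of the 4 genes ranged from 0.432 to 0.776 in limma.

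Histone chaperones that work with Hat1 had 7 tested genes, of which 2 were lower and 0 higher at an unadjusted p under 0.05, against 4.81% and 6.03% of all genes. This count of 2 became 1 when any library but metformin replicate 1 was left out. It was also 1 with a replicate block and with moderated spreads without the trend. Asf1a, a chaperone of histones H3 and H4, had 7.16, 6.69 and 6.76 FPKM in the control group and 6.33, 5.70 and 6.17 FPKM with metformin, and all metformin values were below all controls. Its log2 difference was -0.16 (standard error 0.05, adjusted p = 0.377 from limma). Nasp, another chaperone of H3 and H4, named here after its values were seen, had 46.4 ± 0.522 and 44.4 ± 0.286 FPKM (SD, n = 3 each, adjusted p = 0.394 from limma). Rbbp7, the usual subunit beside Hat1, had a log2 difference of -0.014 with an adjusted p of 0.845 in limma. Chaf1b, of the chromatin assembly factor, had a log2 difference of 0.045 with an adjusted p of 0.746.

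Of the CREB and CITED partners of Ep300 and Crebbp, 12 were tested, and 9 had estimates above 0. Crem, which encodes activators and repressors that bind cyclic AMP response elements, had 1.97, 1.83 and 1.59 FPKM in the control group and 1.40, 1.46 and 1.27 FPKM with metformin, without overlap. Its log2 difference of -0.23 was the largest in size of the 103 genes (standard error 0.084, adjusted p = 0.402 from limma). The CREB coactivator gene Crtc3 had 4.51, 4.72 and 4.59 FPKM in the control group and 5.29, 4.93 and 5.05 FPKM with metformin, also without overlap, and a log2 difference of 0.12 (standard error 0.046, adjusted p = 0.423 from limma). Cited2, which binds p300 and CBP, had a high level, at a mean of 131 FPKM in the control group and 134 FPKM with metformin.

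Of 9 genes for the supply of acetyl-coenzyme A, 3 had estimates above 0 and 6 below. Slc25a1, the mitochondrial citrate carrier, had 82.6 ± 1.23 FPKM in the control group and 86.1 ± 0.782 FPKM with metformin (SD, n = 3 each), and Dlat, a pyruvate dehydrogenase subunit, had 24.8 ± 0.329 and 23.4 ± 0.807 FPKM. Among 10 readers of acyl-lysine, 0 had an unadjusted p under 0.05. The YEATS domain gene Mllt3 had 5.73 ± 0.116 FPKM in the control group and 5.38 ± 0.306 FPKM with metformin. These 3 genes had adjusted p-values of 0.412 to 0.594 in limma.

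The list of 12 genes taken as other lysine acetyltransferases also held Naa10, Naa40, Naa50, Naa60 and Nat10, whose main targets are not lysines. It had 9 estimates below 0 and 3 above, and a median log2 difference of -0.038. At an unadjusted p under 0.05, 3 of the 12 were lower and 0 higher, against 4.81% and 6.03% of all genes. This count of 3 became 1 without control replicate 3 and 2 without any other single library. Taf1, the largest subunit of the general factor TFIID, had 15.3, 14.9 and 15.2 FPKM in the control group and 14.3, 13.8 and 14.0 FPKM with metformin. All metformin libraries were below all controls, and the log2 difference was -0.1 (standard error 0.031, adjusted p = 0.363 from limma, the lowest of the partner lists). Clock, a circadian transcription factor, had 3.37 ± 0.129 FPKM in the control group and 2.90 ± 0.0643 FPKM with metformin, and the cohesin acetyltransferase gene Esco1 had 10.0 ± 0.143 and 9.43 ± 0.206 FPKM (SD, n = 3 each), both named after their values were seen and each with an adjusted p of at least 0.377 in limma. Elp3, the catalytic subunit of Elongator, had 35.1 ± 0.923 and 35.9 ± 0.128 FPKM.

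**Figure D4:**
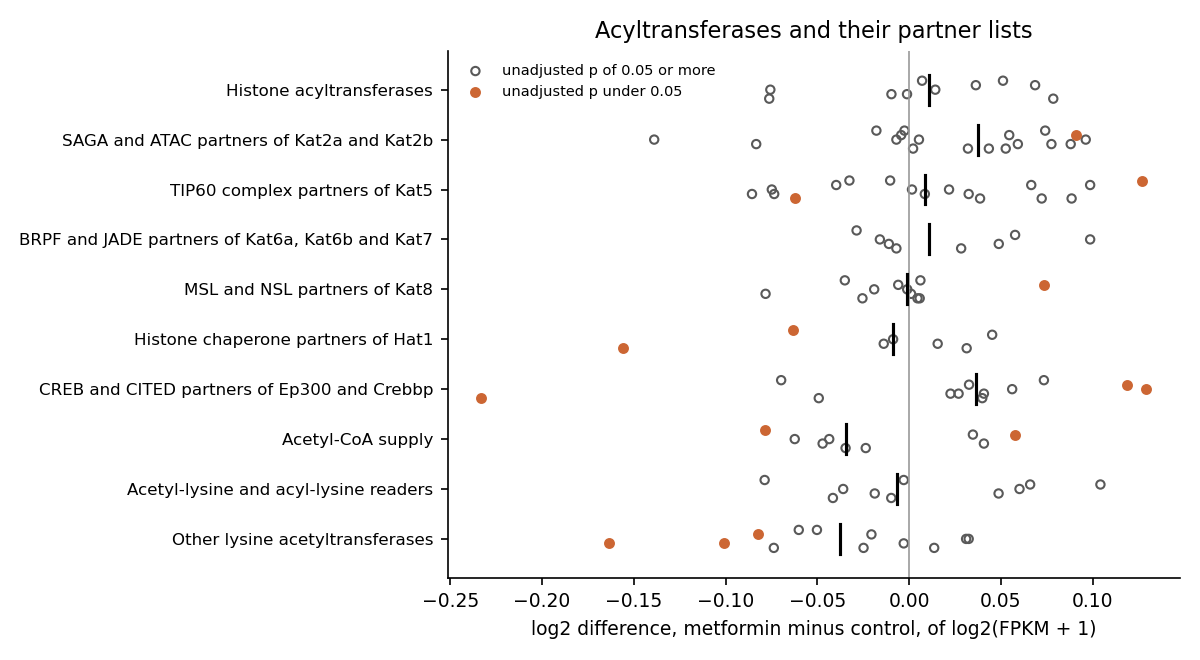
Log2 difference of metformin minus control on the scale of log2(FPKM + 1), with 1 point per gene for the 10 acyltransferases in the top row and 9 partner lists below, and a bar at each median. Filled points have an unadjusted p under 0.05 in limma, 0 of the 10 acyltransferases and 14 of the 103 partner genes, and none of these passed adjustment.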

How the data were processed

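The authors deposited FPKM values, rounded to 2 decimals, for 55401 Ensembl genes in 6 libraries. HISAT2, DESeq2 and mm9 are named in the submitters' processing notes without a role. Table positions lay within 5000 bases of RefSeq GRCm38.p6 starts for 94.0% of 23303 genes compared, and of NCBIM37 starts for 5.2%, so GRCm38 was used. The counter is not given in the sources used here. Symbols came from Ensembl identifiers, and 4 of the 10 genes were matched by an older symbol in the RefSeq table. A partner symbol carried by 2 rows was left out.

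FPKM is not a count, so no count test was run. The tested genes, with means of 1 FPKM or more, were fitted as log2(FPKM + 1) with limma 3.58.1 (R 4.3.3), lmFit and eBayes with a trend, two-sided, Benjamini-Hochberg adjustment over 10661 genes, threshold 0.05. Single values and ratios had exact permutation tests, in which 3 against 3 cannot give less than 0.1. Depth came from the steps of FPKM in genes with a single exon under 400 bases, where 100% of values were within 0.1 of a whole fragment. By this depth 3 fragments on 1 kb are worth 0.214 to 0.224 FPKM, which covers counting error only. The fits were tested on simulated data. Samples were grouped by their titles. Figures were drawn with matplotlib 3.10.9.

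Genes named were the 10 acyltransferases, in each partner list the gene with the lowest p in each direction, and the 3 genes with the lowest adjusted p of all, and 1 gene that this rule names is not reported here. Others were named after their values were seen. The 10 genes and the lists were chosen with earlier results of these data known. Alternatives were other pseudocounts, filters, scalings and spreads, a replicate block, and each library left out in turn.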

Additional observations from a re-analysis of the deposited data

How the results depend on the processing

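Under the alternatives tried, 0 of the 10 acyltransferases and 0 of the partner genes reached an adjusted p under 0.05 in limma. Crebbp, Hat1, Kat2a, Kat5, Kat7 and Kat8 kept their direction wherever they were tested, but leaving out single libraries moved their log2 differences over ranges of 0.0525 to 0.1074 for Crebbp, -0.1208 to -0.0383 for Hat1, 0.038 to 0.0899 for Kat2a, -0.1036 to -0.0396 for Kat5, 0.0157 to 0.0665 for Kat7 and 0.0206 to 0.0708 for Kat8. Kat6b was -0.011 with quantile normalization. Leaving out each library gave log2 differences of -0.023 to 0.0403 for Ep300, -0.012 to 0.023 for Kat2b and -0.0296 to 0.0064 for Kat6a, and 0 to 1 of the 10 genes had an unadjusted p under 0.05, the 1 being Hat1 without metformin replicate 3. The number of partner genes at an unadjusted p under 0.05, 14 as reported, was 7 with a mean of at least 10 FPKM, where 64 were tested, 9 with moderated spreads without the trend, and 6 to 11 with a library left out. Called genes that were lower with metformin numbered 3 without a filter and 0 to 1 with a library left out, 1 without control replicate 3 or metformin replicate 3. With the replicate number as a block, 6 partner genes had an unadjusted p under 0.05 and 2 genes in all were called. Libraries with the same number did not deviate together (correlations -0.032, 0.018 and 0.048). The values thus gave no sign of pairing by number, but 3 libraries per group could miss a weak shared effect. By estimate, counting error alone was largest for Crebbp, Kat2b, Kat5, Kat6b and Kat8, at 6.21% to 8.66%. Yet the replicate coefficients of variation of these genes were smaller, such as 2.87% for Kat6b and 5.32% for Crebbp. In the other acyltransferases they were above the counting estimate. The estimated fragments are thus uncertain, and the reason for the mismatch was not tested.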
